A study of Mus musculus with 8 samples.

Results

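The mitosis and spindle genes described here are 38 named mouse genes whose products condense the chromosomes, drive entry into mitosis, build the spindle, watch over kinetochore attachment, trigger anaphase and cut the daughter cells apart. They were taken as a list of symbols, with no cut on measured values. Earlier results of these data were known when the list was chosen. All 38 genes were found in every one of the 8 libraries, among 53657 genes that the colon and culture count tables share. The study asked what the nuclear receptor RORα does in helper T cells that cause colitis. Naive CD4+ T cells came from control mice with floxed Rora alleles (Rora_fl/fl) or from Cd4_cre Rora_fl/fl mice, the knockout here, in which Cre driven by Cd4 acts in T cells. For the colon samples these cells were transferred into Tcrbd-/- recipients, which have no T cells of their own but keep their other cells, and CD4+ T cells were recovered from their colons after 6 weeks. That gave 2 control and 2 knockout libraries. For the cultured Th17 samples naive cells of each genotype received plate-bound antibodies to CD3 and CD28 and spent 4 days in either TGF-β plus IL-6 (the TGF-β mix) or IL-6 plus IL-1β plus IL-23 (called the IL-23 mix below), with 1 library for each genotype and mix. All cells, controls included, received a final restimulation of 2 hours (PMA, ionomycin) before lysis. The age and sex of the mice, and whether the libraries of a colon group came from separate or pooled recipients, are not given in the sources used here, so the p-values speak only of how far these libraries scatter, which may be technical.

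Entry into mitosis needs cyclin A and B partners for the kinase CDK1, which phosphorylates many proteins and makes the chromosomes condense and the spindle form. The spindle checkpoint then holds the anaphase-promoting complex back until every kinetochore is attached, after which CDC20 switches that complex on and the chromatids part. Most of these transcripts build up only in G2 and mitosis, because the DREAM repressor complex silences their promoters in resting cells and the B-MYB and FOXM1 activators turn them on later. In activated T cells, which divide fast after antigen contact, they are a familiar readout of how many cells are cycling. In bulk RNA, fewer cycling cells and less transcript per cycling cell cannot be told apart.

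The libraries held 13176752 to 15922696 counts. Levels are given as CPM (counts scaled to a common library size) scaled by TMM, a factor that corrects for differences in library composition, with all 8 libraries scaled together. Rora, the label check, stood at 279 and 322 CPM in control colon and 147 and 164 CPM in knockout colon. In culture it was 456 CPM in the control and 173 CPM in the knockout in the TGF-β mix, and 139 and 53.9 CPM with the IL-23 mix. The knockout libraries were lower in each setting, and the count covers the whole gene, including exons outside the floxed part. All 21 T cell markers were detected in every library. Their summed level was 17567 and 17041 CPM in control colon, 13708 and 13471 CPM in knockout colon and 8738 to 9061 CPM in culture. Colon libraries also held RNA of B and plasma cells (13 markers, 1428 to 3030 CPM in sum).

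Many promoters of these genes share short sequence elements. Nuf2, Ncaph, Mad2l1 and Birc5, whose promoters held neither element described here, were also lower with the IL-23 mix (log2 -1.81, -1.16, -1.13 and -1.52). The part of the elements in that difference was not tested. The stretches below are examples that carry such elements, from genes that were lower with the IL-23 mix. Each is the 140 bases directly before the transcription start in the RefSeq promoter table (GRCm38.p6), written 5′ to 3′ on the gene's own strand. Capitals mark TTTGAA, the core of the cell cycle genes homology region that DREAM subunits recognise, and CCAAT, the box bound by NF-Y, on either strand (TTCAAA and ATTGG are their reverse complements).
Cdk1 (chr10:69352913-69353052, minus strand): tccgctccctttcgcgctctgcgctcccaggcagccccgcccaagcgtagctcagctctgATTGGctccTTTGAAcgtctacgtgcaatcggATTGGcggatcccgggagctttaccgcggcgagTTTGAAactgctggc
Cdc20 (chr4:118437344-118437483, minus strand): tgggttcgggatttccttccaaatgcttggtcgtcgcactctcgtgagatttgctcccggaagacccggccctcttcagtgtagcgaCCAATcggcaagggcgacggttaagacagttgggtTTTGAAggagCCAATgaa
Ube2c (chr2:164769789-164769928, plus strand): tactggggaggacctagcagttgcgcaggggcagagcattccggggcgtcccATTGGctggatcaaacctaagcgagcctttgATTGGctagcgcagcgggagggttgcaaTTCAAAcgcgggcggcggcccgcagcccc
Ccnb2 (chr9:70421555-70421694, minus strand): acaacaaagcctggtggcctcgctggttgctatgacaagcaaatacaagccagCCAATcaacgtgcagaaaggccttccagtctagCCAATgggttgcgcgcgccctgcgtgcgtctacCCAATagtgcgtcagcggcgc
Top2a (chr11:99024190-99024329, minus strand): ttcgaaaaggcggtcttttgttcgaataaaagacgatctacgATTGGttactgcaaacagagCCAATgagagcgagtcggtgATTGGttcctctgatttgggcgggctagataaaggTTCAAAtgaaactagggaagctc
Kif11 (chr19:37376242-37376381, plus strand): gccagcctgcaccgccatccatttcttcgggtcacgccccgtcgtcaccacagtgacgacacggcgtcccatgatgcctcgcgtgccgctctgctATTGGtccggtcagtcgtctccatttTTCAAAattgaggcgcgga
Cenpa (chr5:30666746-30666885, plus strand): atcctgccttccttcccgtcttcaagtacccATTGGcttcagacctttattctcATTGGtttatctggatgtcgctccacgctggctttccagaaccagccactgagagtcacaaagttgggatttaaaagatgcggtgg

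Within the stretch shown Cdk1 carried TTTGAA 71 and 15 bases before the start, between and after inverted CCAAT boxes 80 and 48 bases before it. Ccnb2 showed 3 CCAAT boxes spaced evenly, 87, 54 and 21 bases before the start, and its nearest TTTGAA lay 4 bases after the start, outside the stretch shown. In its stretch Top2a had 3 CCAAT boxes, on both strands, and an inverted TTTGAA 23 bases before the start, and further upstream it had 3 more CCAAT boxes and a TTTGAA. Kif11 had 1 of each. The single TTTGAA of Cenpa lay 16 bases after the start.

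RefSeq promoters, each from 250 bases before to 50 bases after the start, were matched for 32 of the 38 members. Smc4, Ccna2, Cdc25c, Aurkb, Tpx2 and Kif20a were not matched. TTTGAA was present in 24 of the 32 (75%), against 18.1% of all 27025 promoters of the table. CCAAT was present in 25 of 32 (78.1%), against 37.9% of all promoters. Other cell cycle promoters held these letters too: CCAAT was in 23 of 35 DNA replication promoters (65.7%) and 37 of 57 promoters of other mitotic genes (64.9%), and TTTGAA was in 4 and 31 of them. Both stood together in 21 of 32 members (65.6%), against 7.12% of all promoters, 25 of the 57 other mitotic promoters and 3 of the 35 replication promoters. The E2F-type motif GGCGGGAA was in 0 of 32 member promoters and in 2.24% of all promoters, while 7 of 35 DNA replication promoters held it. Both strands were searched, CCAAT and TTTGAA can overlap by at most 1 base, and a match describes letters in the window, not a bound site.

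In the median of its genes, every mitotic role was lower in colon than in culture and, within culture, lower with the IL-23 mix. The 38 members together took 0.0591% of all counts in each control colon library, 0.0740% and 0.0763% in knockout colon, 0.490% and 0.492% in the TGF-β mix (control and knockout) and 0.167% and 0.183% with the IL-23 mix. Their summed level ran from 699 CPM in a control colon library to 4502 CPM in the knockout culture with TGF-β and IL-6. The 3 settings did not overlap in this sum, and the genotypes lay far closer together than the settings.

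**Figure D1:**
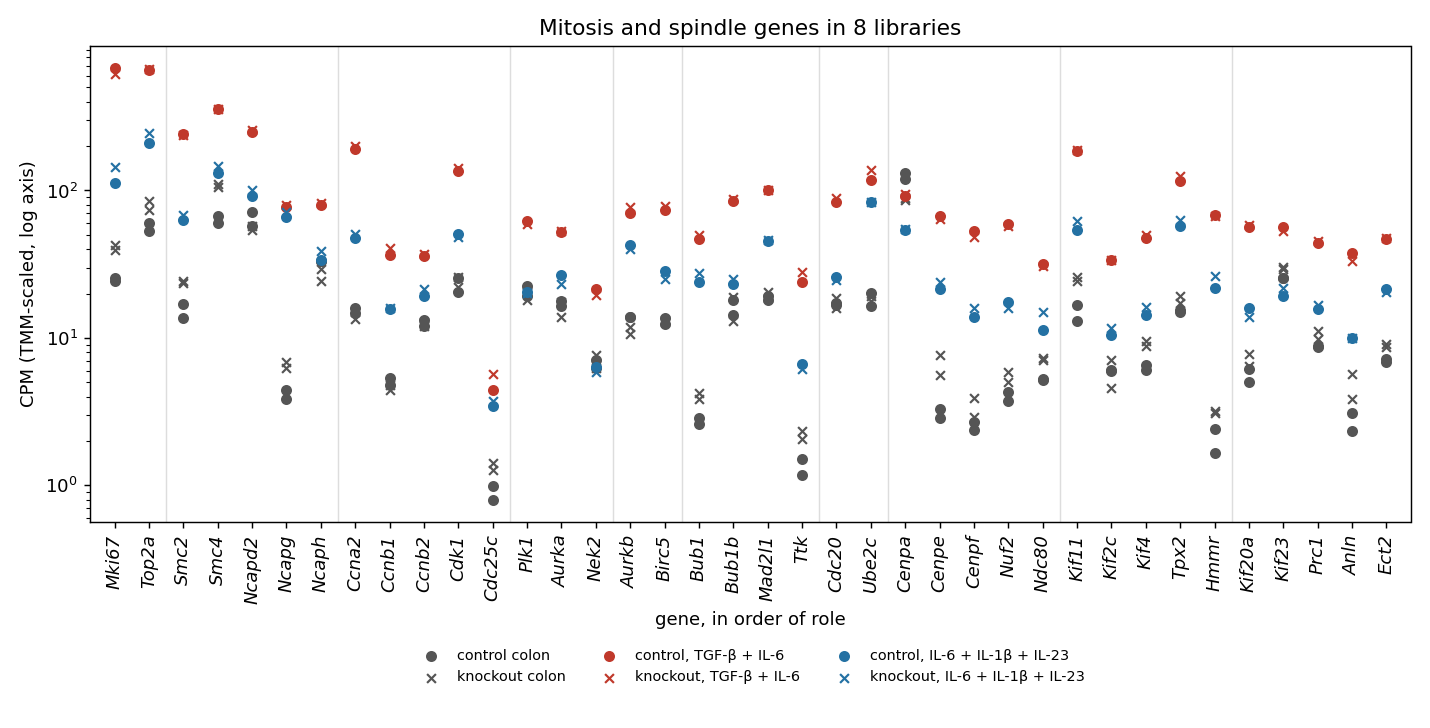
Level of each of the 38 genes (x axis, grouped by role with thin lines between roles) in TMM-scaled CPM on a log axis, with 1 point per library: grey for colon, red for TGF-β plus IL-6, blue for the IL-23 mix, circles for control and crosses for knockout. Red points lie above blue points for all 38 genes, and the culture points lie above the grey points for 34 of 38, with Cenpa highest in control colon.

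Colon cells against cultured cells were compared across all 8 libraries in 1 fit with edgeR's quasi-likelihood test, adjusted over 14886 genes by Benjamini-Hochberg at 0.05, as in all tests below. Of the 38 members 37 were lower in colon, where 40.6% of all tested genes were called lower, and 1, Cenpa, was higher, where 40.9% of all tested genes were called higher. The members' median log2 difference was -1.97, against -0.01 over all tested genes. In 34 of 38 members all 4 culture libraries were above all 4 colon libraries, which was true of 26.9% of tested genes. The exceptions were Plk1, Nek2, Kif23 and Cenpa. The difference spanned from 17.7-fold more in culture for Hmmr, a spindle assembly factor, to 1.36-fold more for Kif23, a midzone motor, as ratios of mean CPM. Tissue of origin, time since activation, count table and any batch cannot be told apart in this comparison. Summed markers of other cells moved with it. The 13 B and plasma cell markers summed to 1428 to 3030 CPM in colon and 216 to 359 CPM in culture. The 13 macrophage and monocyte markers summed to 59.1 to 88.6 CPM and 2.14 to 32.5 CPM. Of these 13, Lyz2, C1qa, C1qb, C1qc, Fcgr1 and Ms4a7 were at 0 in all cultures. The part of these markers of other cells in the result was not tested. Scaling to T cell markers put the median of all genes at -0.78 and that of the members at -2.74.

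The cytokine mixes were compared over the 4 culture libraries in a fit of genotype plus mix, so that the genotypes serve as repeats of the mix (13983 genes tested, 1 residual degree of freedom). With the IL-23 mix 37 of 38 members were lower, where 34.0% of all tested genes were lower, and none was higher. The remaining member, Cdc25c, had a log2 difference of -0.49 ± 0.20 (standard error; adjusted p = 0.052, edgeR). The members' median was -1.49, against 0.02 over all genes. Both TGF-β libraries were above both IL-23 mix libraries for all 38 members, which was true of 42.1% of tested genes. The ratio of TGF-β plus IL-6 over the IL-23 mix had a median of 2.85 in control cells and 2.69 in knockout cells. In control cells it ran from 1.17 for Ncapg to 6.10 for Mki67, and in knockout cells from 1.11 for Ncapg to 4.54 for Ttk. Summed levels of some markers of other cell types differed between the mixes. The 12 fibroblast markers summed to 4.05 and 5.45 CPM in the TGF-β mix and to 413 and 378 CPM with the IL-23 mix, with Col3a1 and Mmp2 at 0 in all cultures. The 8 neutrophil markers summed to 3.01 and 3.62 CPM against 78.8 and 93.3 CPM. S100a8, S100a9, Csf3r, Elane and Retnlg were at 0 in all cultures, so few of the 8 carried these sums. The part of the fibroblast and neutrophil markers in the result was not tested.

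**Figure D2:**
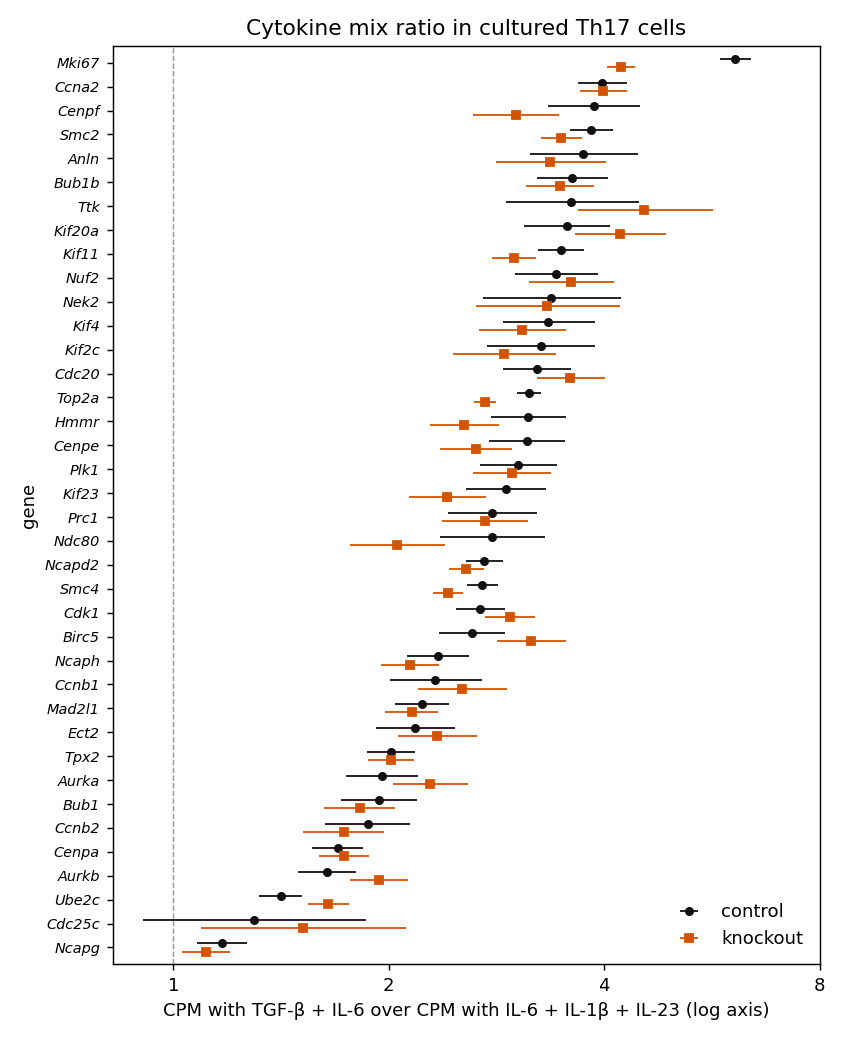
Ratio of the level with TGF-β plus IL-6 to the level with the IL-23 mix (x axis, log scale) for each member in control (black circles) and knockout cells (orange squares), each from 1 library per arm, with 95% intervals for counting error only. All ratios lie above 1, from 1.11 to 6.10, and the interval of Cdc25c in control cells reaches below 1.

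Mki67 and Top2a had the highest CPM of the members in the TGF-β mix. Mki67, which coats mitotic chromosomes and is the standard proliferation marker, stood at 25.6 and 24.3 CPM in control colon, 39.6 and 42.7 CPM in knockout colon, 682 and 612 CPM in the TGF-β mix (control and knockout, here and below) and 112 and 145 CPM with the IL-23 mix. Its log2 difference between the mixes was -2.34 ± 0.12 (adjusted p = 8.6e-07, edgeR), the widest of the 38. Top2a, which untangles sister DNA, stood at 60.5 and 53.0 CPM in control colon, 73.7 and 85.4 CPM in knockout colon, 658 and 671 CPM in the TGF-β mix and 210 and 246 CPM with the IL-23 mix. The 3 settings did not overlap for either gene. Per kilobase of exon the level of Top2a was the highest of the list with TGF-β and IL-6, at 73.0 and 74.4 CPM per kb, followed by Smc4 at 68.3 and 68.4 and Mki67 at 67.8 and 60.8.

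The 5 condensin genes, whose ring complex compacts chromosomes, were all lower in colon and with the IL-23 mix. Smc4, an ATPase arm of the ring, stood at 60.2 and 67.1 CPM in control colon, 106 and 110 CPM in knockout colon, 356 and 356 CPM in the TGF-β mix and 132 and 147 CPM with the IL-23 mix. Smc2, its partner arm, fell by 1.87 ± 0.07 on the log2 scale with the IL-23 mix (adjusted p = 2.8e-07, edgeR). Ncapg, a subunit of condensin I, stood at 3.86 and 4.43 CPM in control colon, 6.23 and 6.91 CPM in knockout colon, 77.6 and 79.9 CPM in the TGF-β mix and 66.4 and 72.0 CPM with the IL-23 mix. Ncapg thus differed little between mixes and widely between colon and culture (log2 -3.82 ± 0.08, adjusted p = 3.4e-15, edgeR). Its mix difference of -0.19 ± 0.07 (adjusted p = 0.047) turned to 0.07 with an offset for GC content and to 0.15 with offsets for exon length and GC content. Exons of Lcorl cover 13.4% of its exon bases on the other strand, and whether counting used strand is not given in the sources used here. Lcorl itself stood at 28.2 and 27.8 CPM in the TGF-β mix and 9.66 and 13.3 CPM with the IL-23 mix. Ncapd2 and Ncaph, the other condensin I subunits, lay at 54.2 to 71.8 CPM and 24.2 to 33.4 CPM in colon.

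The cyclins and CDK1 followed the settings. Ccna2, the cyclin of S phase and mitotic entry, stood at 14.7 and 15.8 CPM in control colon, 15.1 and 13.5 CPM in knockout colon, 190 and 201 CPM in the TGF-β mix and 47.9 and 50.5 CPM with the IL-23 mix. It had the smallest p of all members between mixes (log2 -1.99 ± 0.07, adjusted p = 1.7e-07, edgeR). Ccnb1, the main mitotic cyclin, stood at 4.76 and 5.38 CPM in control colon, 4.43 and 4.77 CPM in knockout colon, 36.3 and 40.7 CPM in the TGF-β mix and 15.6 and 16.1 CPM with the IL-23 mix. Cdk1, the kinase they switch on, stood at 25.7 and 20.4 CPM in control colon, 26.0 and 22.2 CPM in knockout colon, 136 and 142 CPM in the TGF-β mix and 50.7 and 48.1 CPM with the IL-23 mix. For these 3 genes control and knockout differed little within each setting while the settings did not overlap. Ccnb2 ranged from 12.01 to 13.14 CPM in colon and from 19.3 to 37.3 CPM in culture. Cdc25c, a phosphatase that activates CDK1, was the weakest member with 10 to 20 counts in each colon library, and 12.7% of its exon bases overlap Gm3550. Exons of Exosc9 cover 12.5% of Ccna2 on the other strand, and Exosc9 stood at 19.7 to 41.1 CPM.

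The mitotic kinases were the role nearest to their culture level in colon. Plk1, the polo kinase of spindle assembly, stood at 19.2 and 22.3 CPM in control colon, 20.3 and 18.2 CPM in knockout colon, 62.3 and 59.5 CPM in the TGF-β mix and 20.5 and 20.1 CPM with the IL-23 mix. Its colon and IL-23 mix values overlapped. Aurka, the centrosome kinase, stood at 16.5 and 17.7 CPM in control colon, 14.0 and 17.5 CPM in knockout colon, 52.1 and 53.3 CPM in the TGF-β mix and 26.6 and 23.3 CPM with the IL-23 mix. Nek2, a kinase of centrosome separation, lay at 6.23 to 7.62 CPM in colon and 5.83 to 6.34 CPM with the IL-23 mix, so these also overlapped. The role's median log2 difference between colon and culture was -0.81. The chromosomal passenger genes, with a median of -1.97, lay lower. Aurkb, the kinase that corrects faulty attachments, stood at 13.9 and 13.9 CPM in control colon, 11.9 and 10.7 CPM in knockout colon, 70.5 and 77.3 CPM in the TGF-β mix and 43.0 and 39.9 CPM with the IL-23 mix. Birc5, its partner survivin, stood at 13.6 and 12.5 CPM in control colon, 13.1 and 12.8 CPM in knockout colon, 73.8 and 79.1 CPM in the TGF-β mix and 28.3 and 25 CPM with the IL-23 mix. Both genes separated the 3 settings.

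Among the spindle checkpoint genes Bub1b, which encodes the BubR1 subunit of the checkpoint complex, stood at 18.2 and 14.4 CPM in control colon, 19.0 and 12.97 CPM in knockout colon, 84.3 and 87.1 CPM in the TGF-β mix and 23.4 and 25.1 CPM with the IL-23 mix. Mad2l1, which encodes MAD2, the subunit that captures CDC20, stood at 18.0 and 19.3 CPM in control colon, 20.4 and 18.6 CPM in knockout colon, 100.5 and 100.1 CPM in the TGF-β mix and 45.1 and 46.5 CPM with the IL-23 mix. Bub1 and Ttk, the checkpoint kinases, were scarcer in colon, at 2.61 to 4.20 CPM and 1.17 to 2.33 CPM, than in culture, at 24.1 to 49.95 CPM and 6.19 to 28.1 CPM. Downstream of the checkpoint, Cdc20 stood at 16.8 and 17.2 CPM in control colon, 15.9 and 18.7 CPM in knockout colon, 84.0 and 88.8 CPM in the TGF-β mix and 26.1 and 24.8 CPM with the IL-23 mix. Ube2c, the ubiquitin-conjugating enzyme of the complex, stood at 16.5 and 20.2 CPM in control colon, 17.8 and 19.3 CPM in knockout colon, 117 and 138 CPM in the TGF-β mix and 82.9 and 83.7 CPM with the IL-23 mix. The fall from the TGF-β mix to the IL-23 mix was thus shallow for Ube2c (log2 -0.61 ± 0.08, adjusted p = 0.00016, edgeR) and steep for Cdc20 (log2 -1.77 ± 0.08, adjusted p = 6.1e-07). The other-strand gene Tnnc2, which covers 22.8% of Ube2c exon bases, had no count in any library.

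Kinetochore genes split into Cenpa and the rest. Cenpa, the histone variant that marks centromeres, stood at 120 and 131 CPM in control colon, 86.0 and 88.6 CPM in knockout colon, 91.8 and 94.6 CPM in the TGF-β mix and 54.1 and 54.6 CPM with the IL-23 mix. Control colon was its highest setting, above every culture library, and knockout colon lay between the mixes. Its colon difference was 0.56 ± 0.06 on the log2 scale (adjusted p = 2.0e-07, edgeR), and it turned to -0.22 when libraries were scaled to their T cell markers. Cenpe, a kinetochore motor that brings chromosomes to the spindle equator, stood at 3.32 and 2.85 CPM in control colon, 5.63 and 7.69 CPM in knockout colon, 66.8 and 63.7 CPM in the TGF-β mix and 21.4 and 24.05 CPM with the IL-23 mix. Cenpf, a large kinetochore protein, stood at 2.69 and 2.37 CPM in control colon, 2.93 and 3.92 CPM in knockout colon, 53.5 and 48.3 CPM in the TGF-β mix and 13.8 and 16.1 CPM with the IL-23 mix. Both had culture levels above all colon libraries. Nuf2 and Ndc80, which form the microtubule-binding NDC80 complex, lay at 3.72 to 5.84 CPM and 5.21 to 7.28 CPM in colon and reached 59.5 and 31.6 CPM with TGF-β and IL-6. Per kilobase of exon, Cenpa at 14.7 to 22.3 CPM per kb and Smc4 at 11.6 to 21.2 CPM per kb were the members with the highest mean level in colon.

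Among the spindle builders Kif11, the motor that pushes the spindle poles apart, stood at 13.02 and 16.7 CPM in control colon, 24.4 and 25.8 CPM in knockout colon, 186 and 187 CPM in the TGF-β mix and 53.6 and 62.4 CPM with the IL-23 mix. Tpx2, the activator of Aurora A on the spindle, stood at 14.9 and 15.5 CPM in control colon, 19.2 and 17.2 CPM in knockout colon, 116 and 126 CPM in the TGF-β mix and 57.8 and 62.6 CPM with the IL-23 mix. Both separated the settings. Hmmr was the member furthest below culture in colon, at 1.66 to 3.21 CPM against 21.7 to 67.9 CPM (log2 -3.99 ± 0.12, adjusted p = 7.0e-14, edgeR). Among the midzone and cytokinesis genes Prc1, which bundles the central spindle, stood at 8.62 and 8.79 CPM in control colon, 11.2 and 9.90 CPM in knockout colon, 43.97 and 45.4 CPM in the TGF-β mix and 15.8 and 16.7 CPM with the IL-23 mix. Kif23 had nearly its culture level in colon, at 25.3 to 30.3 CPM against 19.4 to 56.5 CPM, and was the member closest to no colon difference (log2 -0.29 ± 0.07, adjusted p = 0.0022, edgeR). Offsets for exon length and GC content together turned that value to 0.15. Exons of Cdc23 cover 29.3% of Kif20a, a midzone motor, and those of Pdzd11 cover 15.1% of Kif4, a chromosome-arm motor, both on the other strand. Cdc23 stood at 62.0 and 62.6 CPM in the TGF-β mix and 29.9 and 30.2 CPM with the IL-23 mix. Exons of Rccd1 cover 11.1% of Prc1 on the other strand, and Rccd1 stood at 5.83 to 8.71 CPM in colon.

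The main genotype comparison in the series, colon cells with and without Rora, gave a mixed picture for the mitotic genes. Mki67, Top2a and 3 of the 5 condensin genes were among those higher in knockout cells, while none of the cyclins, CDK1, the mitotic kinases, the checkpoint genes or the anaphase genes passed. The other condensin genes, Ncapd2 and Ncaph, had log2 differences of -0.20 ± 0.11 and -0.30 ± 0.12 and did not pass. Of the 38 members 9 were higher in knockout colon, where 19.6% of all 13101 tested genes were higher, and 1 was lower, where 19.9% of all tested genes were lower. The other 28 did not pass. The number called higher lay near the share over all tested genes, and the number called lower lay below it. Whether the calls differed by role was not tested. The members' median log2 difference was 0.27, against 0.01 over all tested genes. In 21 of 38 members (55.3%) both knockout libraries were above both controls, against 35.6% of tested genes. In 3 members (7.89%), Ncaph, Aurkb and Cenpa, both were below, against 35.0% of tested genes.

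On GRCm38 the genes with the smallest p were Smc4 (ENSMUSG00000034349, chr3:69004738-69034623, plus strand), Mki67 (ENSMUSG00000031004, chr7:135689784-135716361, minus strand) and Kif11 (ENSMUSG00000012443, chr19:37376403-37421859, plus strand), and the gene called lower was Cenpa (ENSMUSG00000029177, chr5:30666777-30674830, plus strand). Smc4 had a mean of 63.7 ± 4.88 CPM in control and 108 ± 3.07 CPM in knockout colon (SD, n = 2 each) and a log2 difference of 0.77 ± 0.09 (adjusted p = 6.8e-05, edgeR). Mki67 rose from 24.9 ± 0.904 to 41.2 ± 2.25 CPM, by 0.73 ± 0.10 on the log2 scale (adjusted p = 0.00028, edgeR). Kif11 rose from 14.9 ± 2.61 to 25.1 ± 0.982 CPM, by 0.76 ± 0.14 (adjusted p = 0.0013, edgeR). The knockout libraries did not overlap the controls for any of the 3. Cenpe showed the widest rise, from 3.09 ± 0.333 to 6.66 ± 1.46 CPM (log2 1.12 ± 0.23, adjusted p = 0.0028, edgeR), on 36 to 108 counts a library. Smc2 at 0.65 ± 0.13, Top2a at 0.49 ± 0.10, Ncapg at 0.67 ± 0.20, Kif4 at 0.55 ± 0.17 and Anln, a scaffold of the cleavage furrow, at 0.81 ± 0.27 were the other members called higher, with adjusted p from 0.0026 to 0.032 (edgeR). Kif4 and Anln are named because they complete the count, after their values were seen. Smc2 and Top2a did not pass with an offset for GC content (adjusted p = 0.083 and 0.064, edgeR). Ncapg, Kif4 and Anln each missed the threshold in some of the fits that left out 1 colon library, which keep 1 library in a group. Over those fits the members' median lay from 0.18 to 0.27. DESeq2 called 6 members higher, where 1634 of all tested genes were higher. It did not call Ncapg, Kif4 and Anln (adjusted p = 0.14, 0.16 and 0.15, DESeq2). Cenpa was the member called lower, from 125 ± 7.56 to 87.3 ± 1.83 CPM (log2 -0.52 ± 0.08, adjusted p = 0.00062, edgeR). Mki67, Smc4, Kif11 and Cenpe passed under every setting tried, with a largest adjusted p of 0.023, and Cenpa passed under all but T cell marker scaling (-0.17, adjusted p = 0.12).

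Most genes of mitotic entry and exit lay near their control level. The log2 differences were -0.09 ± 0.14 for Ccna2, -0.14 ± 0.20 for Ccnb1, 0.07 ± 0.14 for Cdk1 and -0.11 ± 0.13 for Plk1. They were -0.11 ± 0.14 for Aurka, -0.29 ± 0.14 for Aurkb and 0.00 ± 0.14 for Birc5. The anaphase genes gave 0.04 ± 0.13 for Cdc20 and 0.02 ± 0.14 for Ube2c. None of the 9 genes named so far in this group had an unadjusted p under 0.05 (edgeR). The spindle checkpoint genes varied, with -0.02 ± 0.19 for Bub1b, 0.07 ± 0.12 for Mad2l1, 0.56 ± 0.23 for Bub1 and 0.71 ± 0.33 for Ttk, a median of 0.31. Bub1 stood at 2.87 and 2.61 CPM in control and 3.83 and 4.20 CPM in knockout colon, without overlap, and did not pass (adjusted p = 0.079, edgeR). Cenpf at 0.45 ± 0.26, Tpx2 at 0.26 ± 0.13 and Prc1 at 0.28 ± 0.16 did not pass either. With 2 libraries a group, standard errors of 0.12 to 0.20 leave small differences undetected, and members with few counts, such as Ttk on 13 to 31 counts, were less certain still. Of the 9 members called higher, 8 had a matched promoter and 6 of those held both motifs, against 15 of the 24 other matched members.

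Transcript composition moved with the genotype difference. Across all tested genes the log2 difference ranked against GC content with a Spearman coefficient of -0.37, and across the 38 members with -0.69, where all genes share the same 4 libraries and are not independent. Against exon length the coefficients were 0.21 and 0.60. The 9 members called higher had a median GC content of 42.9%, the other 29 of 47.8% and all tested genes of 49.6%. Among tested genes under 42% GC, 40.3% were higher and 3.53% lower in knockout colon, and 3 of the 8 members in that range were higher. Among genes at 54% GC or more, 8.93% were higher and 34.9% lower, and 0 of the 4 members there were higher. With an offset for GC content 5 members were higher and 2 lower, and with offsets for exon length and GC content 4 were higher (Mki67, Smc4, Cenpe and Kif11) and 2 lower. The numbers over all tested genes with these offsets are not given here, so the change cannot be called particular to the members.

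**Figure D3:**
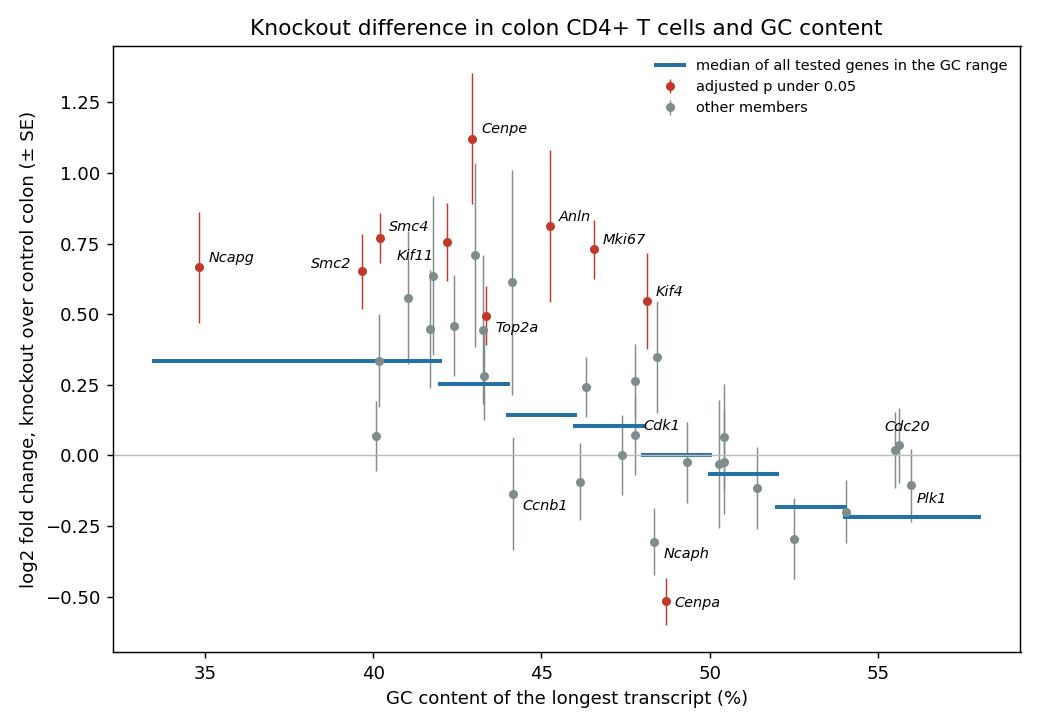
Log2 difference between knockout and control colon cells (y axis, ± standard error) against GC content of the longest transcript (x axis, percent) for the 38 members, red where adjusted p was under 0.05. Blue bars give the median of all tested genes in each GC range, which falls from 0.33 under 42% GC to -0.22 at 54% or more.

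Cell makeup and scaling moved with genotype too. The 21 T cell markers summed to 17041 and 17567 CPM in control colon and to 13471 and 13708 CPM in knockout colon, while the 13 B and plasma cell markers summed to 1428 and 1531 CPM against 2789 and 3030 CPM. Epithelial markers (16) summed to 52.5 and 56.3 CPM against 144 and 146 CPM, and fibroblast markers (12) to 35.1 and 49.3 CPM against 139 and 150 CPM. The 2 CD8 markers summed to 23.9 and 21.7 CPM against 3.38 and 4.20 CPM. Dendritic cell markers (9) summed to 385 and 378 CPM against 545 and 573 CPM. NK and innate lymphoid markers (6) gave 67.6 and 73.9 CPM against 96.0 and 112 CPM. Macrophage and monocyte markers (13) gave 62.6 and 59.1 CPM against 88.6 and 88.6 CPM. Endothelial markers (8) lay at 112 to 119 CPM in all colon libraries. None of these lists had a marker at 0 in all colon libraries, and their part in the result was not tested. Library totals without TMM shifted the median of all genes from 0.01 to 0.21. Under that scaling 19 members were higher and 1 lower, with a median of 0.46, where 4284 of the 13101 tested genes were higher and 1262 lower. When scaled to T cell markers, which shifted the median of all genes to 0.35, 23 members were higher and 0 lower, where 5913 of all tested genes were higher and 669 lower.

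In cultured Th17 cells no member passed the test between the genotypes. Over both mixes 0 of 38 members passed, where 0.0286% of 13983 tested genes passed in either direction (edgeR), which is 4 genes. At an unadjusted p under 0.05 there were 0 members and 500 genes, and DESeq2 also called 0 members. The members' median log2 difference was 0.07. The 3 members with the smallest p were Top2a (0.13 ± 0.08, unadjusted p = 0.13), Tpx2 (0.12 ± 0.07, unadjusted p = 0.13) and Ube2c (0.13 ± 0.08, unadjusted p = 0.14, edgeR). Mki67 gave 0.09 ± 0.12, Smc4 0.08 ± 0.07, Kif11 0.10 ± 0.08, Cenpe 0.03 ± 0.09 and Cenpa 0.03 ± 0.07. Within the mixes, each with 1 library per genotype and no test, the knockout to control ratio was above 1 for 25 of 38 members with TGF-β and IL-6, against 51.0% of genes, and for 26 of 38 with the IL-23 mix, against 48.4% of genes. The ratio of Mki67 lay on opposite sides of 1 in these single libraries: it was 0.898 (95% counting interval 0.875 to 0.922) in the TGF-β mix and 1.30 (1.22 to 1.38) with the IL-23 mix. These intervals cover counting error only.

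Whether the knockout difference itself differed between colon and culture was tested as an interaction over all 8 libraries, so it shares its colon libraries with the colon comparison. The difference was higher in colon for 7 members, where 7.73% of 14886 tested genes were, and lower in colon for 1, where 9.57% were. Smc4 gave 0.68 ± 0.12 (adjusted p = 0.0016, edgeR), Cenpe 1.08 ± 0.24 (adjusted p = 0.0072) and Smc2 0.61 ± 0.14 (adjusted p = 0.010). Cenpa gave -0.55 ± 0.11 (adjusted p = 0.0044, edgeR). The other members called were Mki67, Kif11, Ncapg and Anln. Fewer members were higher without control library 1 and without knockout library 2. With any 1 colon library left out the members' median lay from 0.21 to 0.25. With all 8 libraries it was 0.21, against 0.01 over all tested genes. Offsets for exon length and GC content put it at 0.01. Under these offsets 2 members were higher and 2 lower, where 595 of all tested genes were higher.

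The other cell cycle genes give the setting of these results. Of 68 further mitotic genes 58 were lower and 7 higher in colon than in culture, where 40.6% and 40.9% of all tested genes were. With the IL-23 mix 64 were lower and 2 higher, where 4758 and 5007 of all 13983 tested genes were. Among the 38 members 9 were higher and 1 lower in knockout colon, where 19.6% of all tested genes were higher and 19.9% lower. Of the 66 further mitotic genes tested there, 12 were higher and 13 lower (median 0.02), near those shares. The most significant were Ube2s, a ubiquitin enzyme that works with Ube2c (-0.62 ± 0.08), Ncaph2 of condensin II (-0.55 ± 0.08) and Lmnb1, a lamin (-0.51 ± 0.08), all lower with adjusted p of at most 0.00047 (edgeR). Of 9 cohesin genes, whose ring holds sister chromatids together, 8 were higher and 0 lower in knockout colon (median 0.54). Of all tested genes 19.6% were higher and 19.9% lower. Among the cohesin genes called were Nipbl, the cohesin loader (0.69 ± 0.08), Stag2 (0.59 ± 0.08) and Smc3 (0.61 ± 0.09). Cohesin counts became 4 higher and 1 lower with an offset for GC content, for which the number over all tested genes is not given here.

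DNA replication genes, used in S phase, were lower with the IL-23 mix as the mitotic genes were, and in knockout colon more of them were lower than higher. Of 44, 42 were lower and 1 higher with the IL-23 mix (median -1.67), where 4758 and 5007 of all 13983 tested genes were. Mcm2, Mcm5 and Mcm3 of the replicative helicase led the fall, at -2.29 ± 0.07, -2.11 ± 0.07 and -2.03 ± 0.07. In knockout colon 2 replication genes were higher and 13 lower (median -0.20), where 19.6% and 19.9% of all tested genes were. Mcm5 lay at -0.64 ± 0.08 and Mcm2 at -0.59 ± 0.08. With library totals 4 replication genes were higher and 4 lower, where 4284 and 1262 of all 13101 tested genes were. Among 23 cell cycle transcription factors and DREAM subunits 18 were lower and 3 higher with the IL-23 mix, with Foxm1 at -1.86 ± 0.09. Cdkn1a, which encodes the CDK inhibitor p21, had differences opposite in sign to the members' medians. In knockout colon, though, 28 of the 38 members did not pass. Cdkn1a was named by its small p from a list of CDK inhibitors, whose other genes are not described here. Cdkn1a stood at 922 and 967 CPM in control colon, 605 and 596 CPM in knockout colon, 161 and 167 CPM in the TGF-β mix and 542 and 513 CPM with the IL-23 mix. Its log2 differences were 1.35 ± 0.05 for colon over culture, 1.68 ± 0.07 for the IL-23 mix over TGF-β and IL-6, and -0.65 ± 0.08 for knockout over control colon (largest adjusted p of the 3 = 7.7e-05, edgeR).

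**Figure D4:**
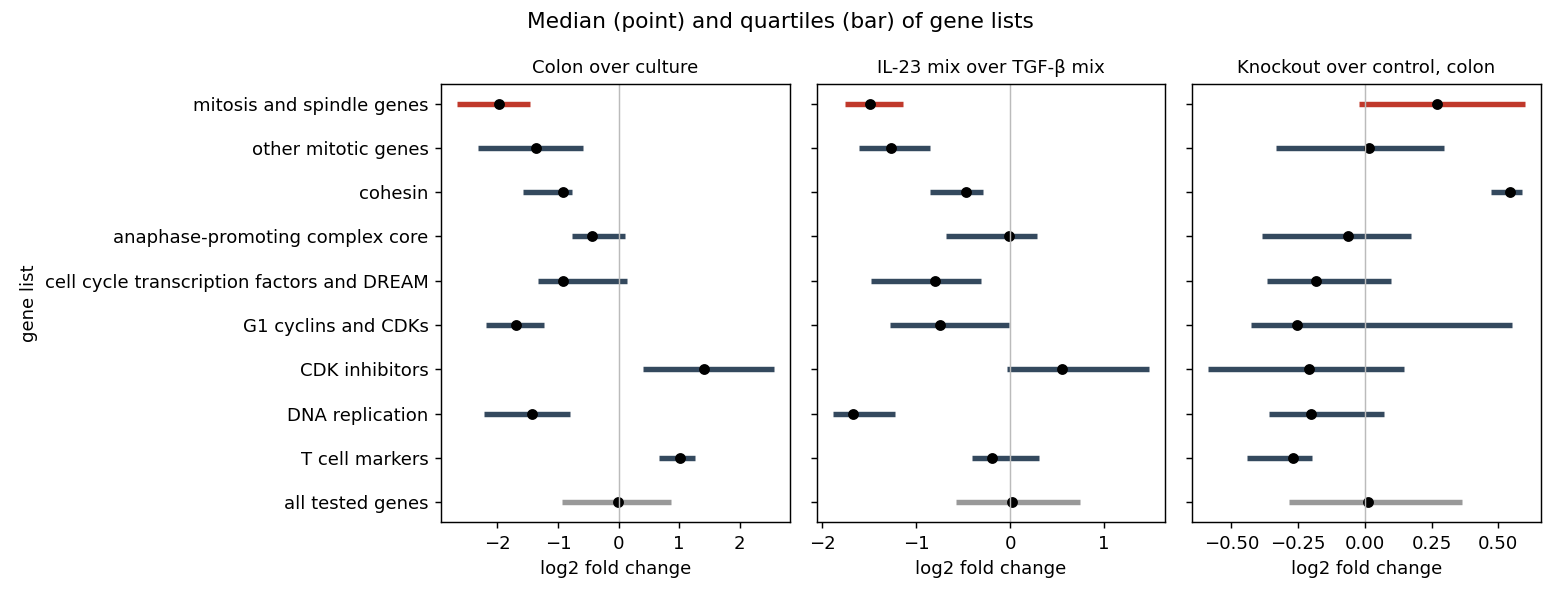
Median (point) and quartiles (bar) of the log2 difference for the 38 members (red), other cell cycle gene lists and T cell markers (dark blue) and all tested genes (grey), with panels for colon over culture, the IL-23 mix over TGF-β plus IL-6, and knockout over control in colon. The members lie at -1.97, -1.49 and 0.27, and CDK inhibitors lie on the other side of 0 from the members in each panel.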

How the data were processed

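RNA of 8 mouse CD4+ T cell libraries was sequenced by the submitters. The authors deposited raw read counts per gene, 1 file per library. The submitters' processing notes name Trim Galore, Bowtie2, featureCounts, edgeR and DESeq2 with build mm10 (the UCSC name of GRCm38), without roles, versions or a strand setting. Genes were counted by Ensembl identifier in the colon files and by symbol in the culture files, which were joined by symbol.

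The main test was edgeR 4.0.16 (R 4.3.3): genes kept by filterByExpr with a minimum count of 10, TMM scaling, quasi-likelihood F-test, Benjamini-Hochberg adjustment over all tested genes, threshold 0.05. Cultures hold 1 library per genotype and mix, so each factor uses the other as repeats. Alternatives were DESeq2 1.42.0, other scalings, no filter, all 8 libraries, a replicate block and leaving out each colon library. Offsets for exon length and GC content (GENCODE M21) were added after seeing the data. The fitting code was tested on simulated data. Colon libraries of a group differed by more than sampling noise, so none was merged. Intervals on ratios cover counting error only.

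The members and gene lists were chosen with earlier results of these data known. Values in every library are given for 20 members, plus the 3 members per direction with the smallest p in each comparison (the 3 smallest unadjusted p where none passed), and at most 3 genes by smallest p from each other list.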

Additional observations from a re-analysis of the deposited data

Results flagged for a closer look

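For 8 members the knockout difference in colon differed from that in culture by the interaction test over all 8 libraries (edgeR's quasi-likelihood test, Benjamini-Hochberg). Of all 14886 tested genes 7.73% were called higher in colon and 9.57% lower. On the log2 scale the colon effect was higher by 1.08 ± 0.24 for Cenpe (adjusted p = 0.0072), 0.91 ± 0.28 for Anln (adjusted p = 0.037), 0.68 ± 0.12 for Smc4 (adjusted p = 0.0016) and 0.65 ± 0.16 for Kif11 (adjusted p = 0.011). It was higher by 0.63 ± 0.16 for Mki67 (adjusted p = 0.017), 0.61 ± 0.14 for Smc2 (adjusted p = 0.010) and 0.58 ± 0.19 for Ncapg (adjusted p = 0.045). For Cenpa the value was -0.55 ± 0.11 (adjusted p = 0.0044). Smc4 and Cenpe passed under every setting tried. With offsets for exon length and GC content Mki67, Kif11, Smc2, Ncapg and Anln did not pass (adjusted p = 0.11, 0.15, 0.21, 0.85 and 0.14, edgeR). Cenpa did not pass with T cell marker scaling (adjusted p = 0.18, edgeR). Anln is named after its value was seen.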

How the results depend on the processing

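Members in knockout colon numbered 19 higher (all genes 4284 higher, 1262 lower, members' median 0.46) with library totals and 23 higher and 0 lower (all genes 5913 and 669, median 0.61) with T cell marker scaling. They numbered 5 higher and 2 lower with the GC offset, and 4 and 2 (median 0.13) with length and GC offsets. The numbers over all genes with these offsets are not given here. Members lower were 2 without the filter, with all 8 libraries and with the replicate block, which called 10 higher. The labels do not say whether control and knockout libraries of the same number are paired (correlation of their deviations 0.15). DESeq2 called 1634 genes and 6 members higher, without Ncapg, Kif4 and Anln. Leaving out single colon libraries put the members' median at 0.18 to 0.27, and fewer members were higher in some of these fits.

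Between genotypes in culture, genes higher and lower were 4 and 5 with RLE and with library totals, 59 and 37 with T cell scaling, 0 and 0 without the filter, 70 and 60 with the length offset, 47 and 41 with GC, 24 and 23 with both and 10 and 5 with all 8 libraries. DESeq2 called 4 higher. Between mixes the members' median was -1.35 with the length offset and -1.29 with both, and Ncapg turned to 0.070 (GC) and 0.15 (both).

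For the genotype effect in colon minus culture, members higher were 11 with library totals (all genes 2266 and 566, median 0.41) and 18, with 0 lower, with T cell scaling (3405 and 297, median 0.53). They were 4 higher and 3 lower with the length offset, 3 and 2 with GC (all genes higher 666) and 2 and 2 with both (595, median 0.012). Without the filter 2 were lower, and DESeq2 called 642 genes higher. Single libraries left out gave 4 to 7 members higher, 1 to 2 lower and 723 to 1073 genes higher. For colon minus culture the members' median was -2.25 with library totals, -2.74 with T cell scaling (0 members higher, all genes 3085 higher and 9620 lower), -1.78 with GC and -1.75 with both. Cenpa turned to -0.22 with T cell scaling and Kif23 to 0.15 with both offsets. The cause of these changes was not tested. Over single members, 1898 values kept direction and call, 60 passed newly and 51 no longer passed. In 118 values the sign changed, of which 4 were called in at least one of the fits and 114 in neither. Most of these lie in the genotype comparisons, such as 10 members in colon with T cell scaling and 9 with both offsets. Low colon counts limit Cdc25c and Ttk most.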
